A study of Mus musculus with 9 samples.

Results

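The 7 mouse genes H2-Q4, H2-Q6, H2-Q7, H2-T22, H2-T23, H2-T24 and H2-M3 are nonclassical MHC class I genes, which encode relatives of the classical antigen-presenting molecules H2-K and H2-D. They were chosen by symbol, with earlier results of these libraries known, from a table of 29763 named genes, and all 7 passed the filter on low values that 11133 genes passed (at least 1 TPM in at least 3 of 9 libraries). TPM is a level scaled to the library's total and corrected for transcript length, so levels of different genes can be set side by side. Because the genes were picked with these comparisons in view, their values are given as a description with a standard error and no p-value, and counts of members past the threshold of the fit over all genes stand beside the share of all genes and support nothing.

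The libraries are polyA RNA-seq of mouse bone marrow-derived macrophages, grown for 7 days in medium with 30% L929 cell supernatant, a source of the macrophage growth factor CSF1, and then given 40 ng/ml interferon-gamma for 12 h. There were 3 libraries each of Ndufa4 KO, Ndufa4l3-miR147 KO and wild type cells, so every group, wild type included, had received interferon-gamma and none was unstimulated. Ndufa4 encodes a cytochrome c oxidase-associated protein of mitochondria, Ndufa4l3 encodes its paralog, and the Ndufa4l3 transcript also carries the microRNA miR-147. The labels call the replicates technical, so errors and p-values measure the spread between libraries only, and they do not give strain, sex or age.

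Class I molecules are membrane proteins that pair with beta-2-microglobulin, and interferon-gamma raises their transcription through factors that include IRF1 and the coactivator NLRC5. Nonclassical members are less polymorphic than the classical ones and each has a specialised audience. H2-T23 encodes Qa-1b, which shows leader peptides of other class I molecules to the CD94/NKG2A receptor of NK cells and some T cells. H2-M3 presents N-formylated peptides, which bacteria and mitochondria make. H2-Q6 and H2-Q7 encode forms of Qa-2, a molecule held in the membrane by a lipid anchor, H2-Q4 encodes Qb-1, and H2-T22 and its near copy H2-T10 are ligands of gamma-delta T cells that bind no peptide.

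Facts of the whole set of libraries bear on every value here. The Ndufa4l3 gene, listed under its symbol AA467197, had 2.90, 2.21 and 4.50 TPM in Ndufa4l3-miR147 KO cells and 355 to 365 TPM in wild type cells. In Ndufa4 KO cells it had 527, 472 and 519 TPM, above every wild type library, so the 2 knockouts lay on opposite sides of wild type for this gene. Its part in the differences below was not tested. Ndufa4 was listed at 0 in all 3 Ndufa4 KO libraries and at 0 to 0.303 TPM in wild type libraries, which checks nothing about that knockout. Ndufa4 KO replicate 3 stood apart: its upper-quartile level was 7.79 TPM against 9.24 to 9.84 TPM in the other libraries. Its deviations from the mean of Ndufa4 KO replicates 1 and 2 ran with transcript length at a rank correlation of -0.51 over genes. Replicates 1 and 2, each set against the other libraries of that genotype, gave 0.34 and 0.41. Replicate 3 was part of the reference for both, so their values are not independent of it. Without Ndufa4 KO replicate 3 the difference of Ndufa4 KO minus wild type on the log2(TPM + 1) scale was -0.41 for H2-Q4, -0.58 for H2-Q6, -0.45 for H2-Q7, -0.19 for H2-T22, -0.08 for H2-T23, -0.07 for H2-T24 and -0.12 for H2-M3. The 7 macrophage markers present summed to 9323 to 9833 TPM in Ndufa4 KO libraries. Their sum was 8439 to 8614 TPM in Ndufa4l3-miR147 KO and 8831 to 8961 TPM in wild type libraries. Lyz2 made up the largest part, with a mean of 5414 TPM in Ndufa4 KO and 4585 TPM in wild type cells. In Ndufa4 KO minus wild type 1 of the 7, Lyz2, was called higher (0.24) and 2, Cd14 (-0.84) and Mertk (-0.51), lower. Of all genes 2.83% were called higher and 5.76% lower. The median difference over the 7 was -0.06, so the higher sum does not describe the list as a whole. Lyz2, Cd14 and Mertk were named after their values were seen. The 10 lymphocyte and NK cell markers, whose cells carry class I as well, summed to 0.993 to 1.61 TPM in Ndufa4 KO, 1.83 to 2.26 TPM in Ndufa4l3-miR147 KO and 1.93 to 2.58 TPM in wild type libraries. The 5 neutrophil markers summed to 1.47 to 32.1 TPM in Ndufa4 KO, 30.9 to 61.1 TPM in Ndufa4l3-miR147 KO and 3.68 to 67.8 TPM in wild type libraries. Their spread between libraries of 1 genotype was thus wide. The part of these cells in the results was not tested. In bulk RNA, fewer cells of a type and less RNA per cell cannot be told apart.

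All 7 genes lie in the H2 complex on chromosome 17 and are annotated as protein-coding (GENCODE M21, GRCm38). H2-Q4 (17:35379617-35385290), H2-Q6 (17:35424850-35430055) and H2-Q7 (17:35439155-35443773) stand side by side on the plus strand. H2-T24 (17:36005695-36020560), H2-T23 (17:36029773-36032855) and H2-T22 (17:36037128-36042747) form a second group on the minus strand, and H2-M3 (17:37270220-37274484, plus strand) lies apart from both. The genes arose by duplication and share exon sequence, which limits how reads can be assigned. Of the distinct 31-base words of its transcripts, H2-M3 shared so few with other genes that 95.4% were found nowhere else, and for H2-T24 the share was 93.4%. That share was 74.2% for H2-T23, 60.8% for H2-Q7, 48.2% for H2-Q6, 47.0% for H2-Q4 and 32.6% for H2-T22. H2-Q4 and H2-Q6 had 505 words in common, 24.6% of those of H2-Q6, and H2-T10 held 47.2% of the words of H2-T22. Single values of H2-Q genes and of H2-T22 are therefore uncertain, and summed levels are given beside them.

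**Figure D1:**
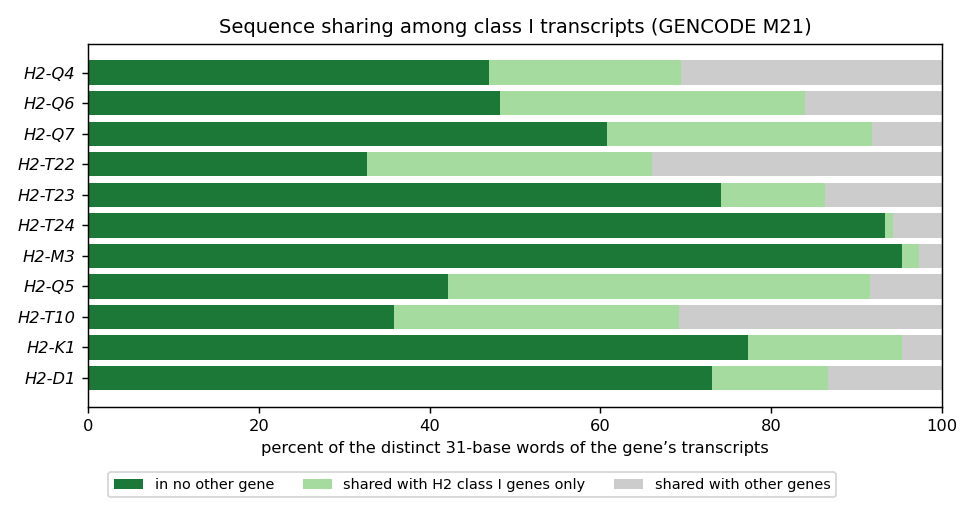
Percent of the distinct 31-base words of each gene's GENCODE M21 transcripts that occur in no other gene (dark green), are shared with H2 class I genes only (light green) or are shared with other genes (grey). H2-M3 and H2-T24 were nearly all their own sequence, whereas 32.6% of H2-T22 words and 47.0% of H2-Q4 words were found in no other gene.

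RefSeq promoter windows (GRCm38.p6) matched 6 of the 7 genes, and the stretch from -200 to -31 bases of the annotated start is shown for those 6 because the H2-Q group and the rest differ in it. H2-T24 is named only. Capitals mark matches to TTTCNCTT, a core of the interferon-stimulated response element, and to GGG and TTCCC set 2 bases apart, an NF-kappaB-like element. These letters were chosen after the sequences had been seen.

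H2-Q4 (chr17:35379417-35379586, plus strand): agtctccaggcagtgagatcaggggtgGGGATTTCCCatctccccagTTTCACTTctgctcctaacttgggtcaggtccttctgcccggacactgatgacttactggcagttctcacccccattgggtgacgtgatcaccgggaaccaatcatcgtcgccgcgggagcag
H2-Q6 (chr17:35424650-35424819, plus strand): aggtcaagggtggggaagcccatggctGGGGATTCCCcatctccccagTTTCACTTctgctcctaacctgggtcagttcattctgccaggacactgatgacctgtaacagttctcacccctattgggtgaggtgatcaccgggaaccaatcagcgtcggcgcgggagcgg
H2-Q7 (chr17:35438955-35439124, plus strand): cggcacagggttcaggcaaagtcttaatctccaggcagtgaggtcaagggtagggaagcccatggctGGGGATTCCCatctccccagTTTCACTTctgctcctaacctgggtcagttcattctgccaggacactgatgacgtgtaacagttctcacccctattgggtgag
H2-T22 (chr17:36042773-36042942, minus strand): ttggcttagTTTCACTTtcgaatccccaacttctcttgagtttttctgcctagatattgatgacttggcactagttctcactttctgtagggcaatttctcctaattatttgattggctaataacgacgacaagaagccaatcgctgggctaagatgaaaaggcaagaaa
H2-T23 (chr17:36032732-36032901, minus strand): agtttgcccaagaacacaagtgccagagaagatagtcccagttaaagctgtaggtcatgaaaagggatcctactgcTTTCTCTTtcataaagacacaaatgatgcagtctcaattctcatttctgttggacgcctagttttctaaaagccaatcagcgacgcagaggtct
H2-M3 (chr17:37270034-37270203, plus strand): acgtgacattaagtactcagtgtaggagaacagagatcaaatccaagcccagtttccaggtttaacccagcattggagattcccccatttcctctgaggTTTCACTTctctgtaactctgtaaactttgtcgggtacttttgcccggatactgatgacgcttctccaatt

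Searched on both strands of the whole 300-base window, TTTCNCTT was present in all 6 windows, at 153, 152, 113, 191, 124 and 101 bases before the start of H2-Q4, H2-Q6, H2-Q7, H2-T22, H2-T23 and H2-M3. The RefSeq start of H2-T23 lies inside the gene as GENCODE M21 draws it, and so does this match, whereas the match lies before the GENCODE start in the other 5. TTTCNCTT was present in 7.66% of all 32851 windows of that length. The NF-kappaB-like letters matched in the windows of H2-Q4, H2-Q6 and H2-Q7, at 173, 173 and 133 bases before the start, and in 1.75% of all windows, whereas these letters did not occur in the windows of H2-T22, H2-T23 and H2-M3. The windows of the classical genes H2-K1 and H2-D1 held both. The longer element of GAAA repeated after 2 bases, found in 3.44% of all windows, matched in H2-T22 and H2-T23 at the place of the TTTCNCTT match, with which it overlaps. CCAAT was in all 6 windows and in 37.4% of all windows. A match describes the letters and is not evidence of a bound factor.

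The 7 genes spanned a wide range of levels, and their order was nearly the same in each genotype. H2-T23 was the most abundant, at 1424 ± 66.7 TPM in Ndufa4 KO, 1456 ± 20.4 TPM in Ndufa4l3-miR147 KO and 1468 ± 21.7 TPM in wild type cells (SD, n = 3 libraries each, here and below). In wild type cells it stood 5.95 times above H2-T22, the next in order, and 66.6 times above H2-Q7, the least abundant. H2-T22, then H2-Q4, followed with ranges that did not overlap in any genotype. H2-M3 and H2-T24 came next and could not be ordered, since their ranges overlapped in all 3 genotypes. H2-Q6 and H2-Q7 were lowest, H2-Q6 above H2-Q7 without overlap in Ndufa4l3-miR147 KO and wild type libraries and with overlapping ranges in Ndufa4 KO libraries. H2-T23 thus carried most of the summed level of the 7 genes, 69.3% ± 1.15 in Ndufa4 KO, 65.5% ± 0.423 in Ndufa4l3-miR147 KO and 66.6% ± 0.682 in wild type libraries. Set against the classical genes, the 7 together came to 41.3% ± 2.63 of H2-K1 plus H2-D1 in Ndufa4 KO, 41.5% ± 1.13 in Ndufa4l3-miR147 KO and 41.3% ± 0.413 in wild type libraries.

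**Figure D2:**
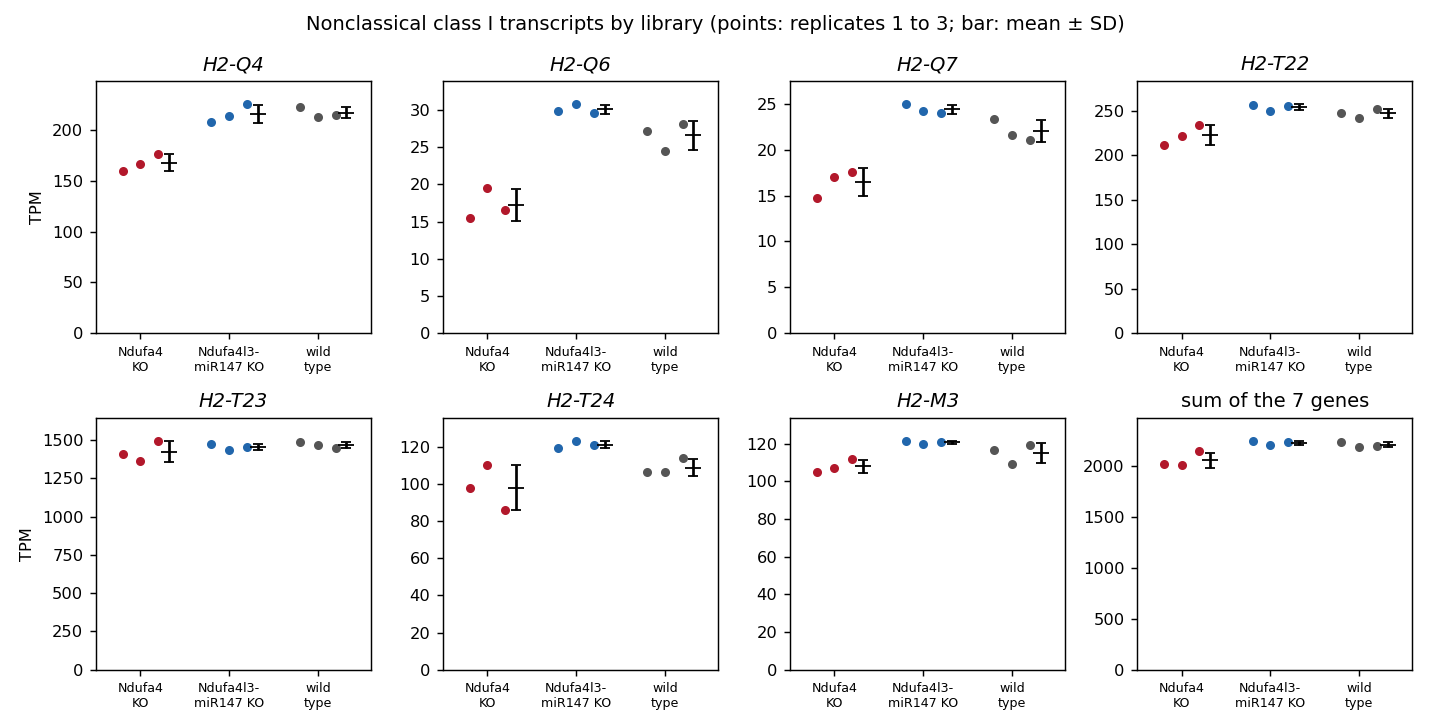
Level in TPM (linear axes from 0) of each of the 7 genes and of their sum in the 3 libraries of Ndufa4 KO (red), Ndufa4l3-miR147 KO (blue) and wild type (grey), with mean ± SD as bars. The Ndufa4 KO points of H2-Q4, H2-Q6 and H2-Q7 lie below all other points, while H2-T23 overlaps between all 3 genotypes.

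In Ndufa4 KO macrophages the 3 H2-Q genes were lower than in wild type cells in every library. H2-Q4 had 159.9, 167.1 and 176.6 TPM in Ndufa4 KO cells, against 223.3, 213.3 and 214.9 TPM in wild type cells. H2-Q6 had 15.5, 19.6 and 16.6 TPM in Ndufa4 KO cells, against 27.1, 24.4 and 28.2 TPM in wild type cells. H2-Q7 had 14.7, 17.0 and 17.6 TPM in Ndufa4 KO cells, against 23.4, 21.6 and 21.1 TPM in wild type cells. None of the 3 overlapped between the genotypes. In a limma fit over all genes the differences on the log2(TPM + 1) scale were -0.37 ± 0.05 for H2-Q4, -0.60 ± 0.09 for H2-Q6 and -0.40 ± 0.08 for H2-Q7 (± SE). They made up the 3 of 7 members called lower at an adjusted p under 0.05, beside 8.59% of all 11133 genes called, 5.76% lower and 2.83% higher, and nothing is read from that count because the members were chosen with this comparison known. With median-of-ratios scaling 4.07% of genes were called lower and 4.44% higher, so the excess of lower calls depended on the scaling. H2-Q7 dropped out of the count under that scaling, under quantile normalization, with the trend on transcript length removed, in a fit of the 6 libraries alone, and when any 1 of the wild type libraries was left out. The difference stayed negative for all 3 genes in all 19 alternatives, over -0.41 to -0.30 for H2-Q4, -0.69 to -0.50 for H2-Q6 and -0.45 to -0.30 for H2-Q7.

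In Ndufa4l3-miR147 KO macrophages the H2-Q genes were not lower. H2-Q4 had 208.2, 214.3 and 226.0 TPM there, overlapping wild type, with a difference of -0.01 ± 0.05. H2-Q6 had 29.9, 30.8 and 29.7 TPM, all above the 3 wild type libraries, with a difference of 0.18 ± 0.09. H2-Q7 had 25.03, 24.26 and 24.03 TPM, again all above wild type, with a difference of 0.14 ± 0.08. The small excess of H2-Q6 and H2-Q7 over wild type was therefore in the opposite direction to that in Ndufa4 KO cells, and none of the 7 members was called in Ndufa4l3-miR147 KO minus wild type, beside 0.431% of all genes, 0.243% higher and 0.189% lower. That comparison called 48 genes in all, with 917 at an unadjusted p under 0.05.

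H2-Q5, which lies between H2-Q4 and H2-Q6, was not among the 7 and is annotated as a polymorphic pseudogene, a gene that is intact in some mouse strains and broken in others. It had 13.2, 12.5 and 12.8 TPM in Ndufa4 KO cells, against 20.1, 18.4 and 17.9 TPM in wild type cells. It was lower in Ndufa4 KO cells by the limma fit over all genes, with a difference of -0.52 ± 0.08 and an adjusted p of 0.0086, and in the 19 alternatives its adjusted p ran between 0.0055 and 0.049. In Ndufa4l3-miR147 KO cells it had 15.3, 18.3 and 17.5 TPM, overlapping wild type (-0.14 ± 0.08, limma adjusted p = 0.80). Since 12.9% of the words of H2-Q6 and 15.5% of those of H2-Q7 also occur in H2-Q5, its level and theirs are not independent, and 42.2% of its own words were found in no other gene. The other H2-Q genes in the table, H2-Q1, H2-Q2, H2-Q3 and H2-Q10, stayed below the filter. No gene was listed there as H2-Q8 or H2-Q9, and the word counts hold neither symbol, so words shared with such copies are not counted.

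The sum over the 8 H2-Q genes listed depends less on how reads are divided among them than the single values do. The transcripts differ in length, however, and some reads are shared with genes outside the group. It was 204, 217 and 224 TPM in Ndufa4 KO libraries, against 295, 279 and 283 TPM in wild type libraries, a difference of -24.6% or -0.41 on the log2 scale. All 3 Ndufa4 KO libraries were below all wild type libraries. In Ndufa4l3-miR147 KO libraries the sum was 279, 289 and 298 TPM, which overlapped wild type and differed from it by 1.07%. H2-Q4 supplied most of the sum, 78.0% in Ndufa4 KO, 74.9% in Ndufa4l3-miR147 KO and 76.1% in wild type libraries. As a share of the classical genes H2-K1 plus H2-D1, the H2-Q sum was 4.48%, 4.24% and 4.24% in Ndufa4 KO libraries, 5.34%, 5.38% and 5.43% in Ndufa4l3-miR147 KO libraries and 5.43%, 5.23% and 5.39% in wild type libraries. This ratio, taken within each library and so free of its scaling, was lower in all 3 Ndufa4 KO libraries than in all others, replicate 3 included.

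**Figure D3:**
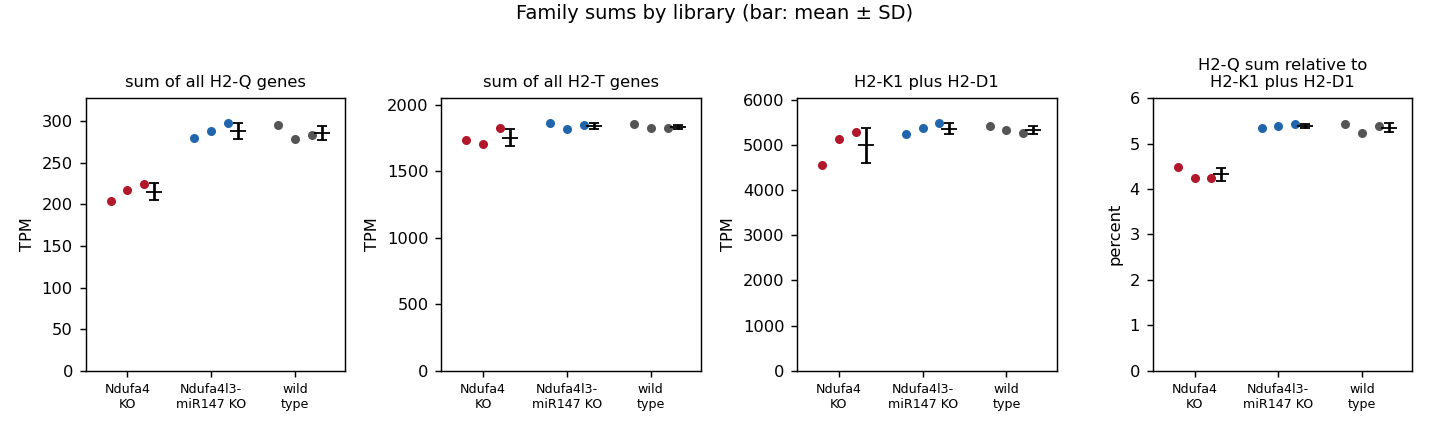
Summed level in TPM of all 8 H2-Q genes, of all 5 H2-T genes and of H2-K1 plus H2-D1, and the H2-Q sum as a percent of H2-K1 plus H2-D1, by library with mean ± SD. The H2-Q sum and its percent are lower in the 3 Ndufa4 KO libraries than in the 6 others, whereas the H2-T sum and the classical sum overlap between Ndufa4 KO and wild type.

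Among the H2-T genes, the dominant H2-T23 hardly differed between genotypes. It had 1412, 1364 and 1496 TPM in Ndufa4 KO cells and 1476, 1435 and 1456 TPM in Ndufa4l3-miR147 KO cells, against 1489, 1469 and 1445 TPM in wild type cells, and all 3 ranges overlapped. Its difference from wild type was -0.04 ± 0.04 in Ndufa4 KO cells and -0.01 ± 0.04 in Ndufa4l3-miR147 KO cells. The sign for Ndufa4 KO turned with the scaling, to 0.03 with median-of-ratios scaling, and quantile normalization gave -0.13, so no direction is given. With quantile normalization H2-T23 was called lower in Ndufa4 KO minus wild type, beside 4.11% of all genes lower and 4.48% higher. Relative to H2-T23 in the same library, H2-Q4 stood at 11.8% ± 0.463 in Ndufa4 KO, 14.9% ± 0.710 in Ndufa4l3-miR147 KO and 14.8% ± 0.246 in wild type libraries, without overlap between Ndufa4 KO and the others.

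H2-T22 had 211, 221 and 234 TPM in Ndufa4 KO cells and 256, 250 and 255 TPM in Ndufa4l3-miR147 KO cells, against 247, 242 and 252 TPM in wild type cells. All Ndufa4 KO libraries were below wild type, by a difference of -0.15 ± 0.05 that was -0.19 without Ndufa4 KO replicate 3. With median-of-ratios scaling it was -0.08. H2-T22 was not called with all libraries in the fit. Without Ndufa4 KO replicate 3 it was called lower, beside 8.76% of all genes lower and 5.57% higher. With the 3 H2-Q genes, H2-T22 made up the 4 of 7 members with no overlap in that direction, beside 21.7% of all genes lower and 9.4% higher without overlap, and in Ndufa4l3-miR147 KO cells it overlapped wild type (0.04 ± 0.05). Added to its near copy H2-T10, which shares much of its sequence, it came to 232 ± 11.1 TPM in Ndufa4 KO, 266 ± 4.27 TPM in Ndufa4l3-miR147 KO and 258 ± 5.03 TPM in wild type cells. H2-T10 alone was at 9.35 ± 1.08 TPM in Ndufa4 KO, 11.8 ± 1.22 TPM in Ndufa4l3-miR147 KO and 10.9 ± 0.251 TPM in wild type cells, and neither knockout passed the limma test against wild type (adjusted p = 0.24 for Ndufa4 KO and 0.97 for Ndufa4l3-miR147 KO).

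H2-T24 varied widely among the Ndufa4 KO libraries. It had 97.6, 110.2 and 85.9 TPM there, against 106.1, 106.1 and 113.8 TPM in wild type cells, and the ranges overlapped. Its difference of -0.16 ± 0.08 was -0.07 without Ndufa4 KO replicate 3, the library that stood apart, and -0.24 without replicate 2. In Ndufa4l3-miR147 KO cells it had 119.5, 123.2 and 120.7 TPM, all above wild type, with a difference of 0.16 ± 0.08. The sum of all 5 H2-T genes, set mainly by H2-T23, was 1731, 1704 and 1825 TPM in Ndufa4 KO and 1863, 1819 and 1845 TPM in Ndufa4l3-miR147 KO libraries, against 1853, 1828 and 1822 TPM in wild type libraries. It overlapped between all 3 genotypes and differed from wild type by -4.41% in Ndufa4 KO, a sign that turned with median-of-ratios scaling, and by 0.457% in Ndufa4l3-miR147 KO libraries.

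H2-M3, the presenter of formylated peptides, had 105.1, 107.1 and 111.9 TPM in Ndufa4 KO cells, against 116.7, 109.5 and 119.3 TPM in wild type cells. The ranges overlapped and the difference was -0.09 ± 0.05, or -0.02 with median-of-ratios scaling. In Ndufa4l3-miR147 KO cells it had 121.6, 119.7 and 120.9 TPM, above every wild type library by a narrow margin, with a difference of 0.07 ± 0.05 that was 0.03 without wild type replicate 2. H2-M3 thus joined H2-Q6, H2-Q7 and H2-T24 as the 4 of 7 members with no overlap above wild type in Ndufa4l3-miR147 KO cells, beside 11.9% of all genes higher and 12% lower without overlap.

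**Figure D4:**
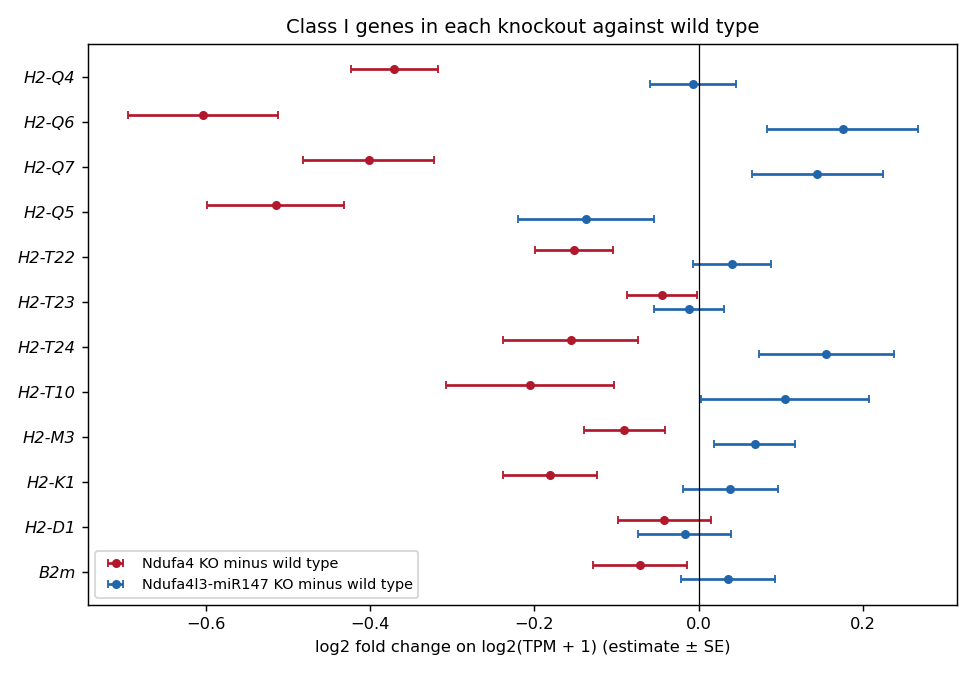
Difference from wild type on the log2(TPM + 1) scale (limma estimate ± SE) for the 7 genes, H2-Q5, H2-T10, the classical genes H2-K1 and H2-D1 and B2m, in Ndufa4 KO (red) and Ndufa4l3-miR147 KO (blue). The 4 H2-Q genes lie at -0.60 to -0.37 in Ndufa4 KO cells and every other gene shown lies between -0.21 and -0.04 (H2-T23 and H2-D1 turn positive with median-of-ratios scaling), while the blue points lie between -0.14 and 0.18. H2-K2, at -0.50 ± 0.14 in Ndufa4 KO cells, is not shown.

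Side by side, the medians over the 7 members were -0.16 in Ndufa4 KO minus wild type and 0.07 in Ndufa4l3-miR147 KO minus wild type, where the medians over all genes were -0.08 and 0.00. Both comparisons use the same 3 wild type libraries. Set directly against each other, Ndufa4l3-miR147 KO cells stood above Ndufa4 KO cells by 0.36 ± 0.05 for H2-Q4, 0.78 ± 0.09 for H2-Q6 and 0.55 ± 0.08 for H2-Q7. The difference was 0.31 ± 0.08 for H2-T24, 0.19 ± 0.05 for H2-T22, 0.16 ± 0.05 for H2-M3 and 0.03 ± 0.04 for H2-T23, and the sign for H2-T23 turned to -0.04 with median-of-ratios scaling. All members but H2-T23 were higher in every Ndufa4l3-miR147 KO library than in any Ndufa4 KO library, 6 of 7 beside 18.3% of all genes, with 6.98% of all genes and no member in the opposite direction. The 3 H2-Q genes were called higher, beside 3.24% of all genes called, 2.2% higher and 1.04% lower, and again nothing is read from the count. H2-Q4 dropped out with median-of-ratios scaling, in a fit of the 6 libraries alone and without Ndufa4l3-miR147 KO replicate 3. H2-Q7 dropped out in that 6-library fit and without Ndufa4l3-miR147 KO replicate 1 or 2. Added calls were H2-T23 with quantile normalization, H2-T24 without Ndufa4 KO replicate 2, and H2-T22 and H2-M3 without Ndufa4 KO replicate 3. This comparison reuses the libraries of the other 2. H2-Q5 was also higher in Ndufa4l3-miR147 KO cells (0.38 ± 0.08, limma adjusted p = 0.045), a call that held in 6 of 19 alternatives.

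The rest of the class I pathway was read from 4 lists with 45 genes, of which 38 passed the filter. None of the 38 was called by limma in any of the 3 comparisons, beside 8.59%, 0.431% and 3.24% of all genes in Ndufa4 KO minus wild type, Ndufa4l3-miR147 KO minus wild type and Ndufa4l3-miR147 KO minus Ndufa4 KO. An unadjusted p under 0.05 was reached by 9 of the 38 in the first of these, 8 lower and 1 higher, beside 2905 of all 11133 genes. It was reached by 3 of the 38, beside 917 of all genes, in the second and by 5, beside 2263, in the last. Median differences in Ndufa4 KO cells were -0.07 over 3 classical class I genes, -0.04 over 13 genes of peptide supply and loading, 0.00 over 13 regulators and -0.18 over 9 class I-like genes outside the H2-Q, H2-T and H2-M groups.

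Of the classical genes, H2-K1 was at 1813, 2112 and 2091 TPM in Ndufa4 KO cells, against 2294, 2248 and 2261 TPM in wild type cells. Its ranges did not overlap, but the difference of -0.18 ± 0.06 missed the threshold (limma adjusted p = 0.088). H2-D1 averaged 2984 ± 226 TPM in Ndufa4 KO and 3067 ± 71.9 TPM in wild type cells (-0.04 ± 0.06, limma adjusted p = 0.67). The shared light chain B2m averaged 10474 ± 796 TPM in Ndufa4 KO and 10984 ± 266 TPM in wild type cells (-0.07 ± 0.06, limma adjusted p = 0.46). In Ndufa4l3-miR147 KO cells H2-K1, H2-D1 and B2m differed from wild type by 0.04, -0.02 and 0.04, none called. Between the knockouts, every Ndufa4l3-miR147 KO library had more H2-K1 than any Ndufa4 KO library (0.22 ± 0.06, limma adjusted p = 0.081). That difference was called with quantile normalization and without Ndufa4 KO replicate 1 or 3. H2-D1 (0.03) and B2m (0.11) overlapped between the knockouts. H2-K2, a further H2 class I gene outside the pathway lists, was named after its value was seen. It had 2.10, 3.02 and 3.12 TPM in Ndufa4 KO cells, against 3.95, 4.82 and 4.08 TPM in wild type cells. Its difference of -0.50 ± 0.14 lay within the range of the H2-Q genes but missed the threshold (limma adjusted p = 0.060). In Ndufa4l3-miR147 KO cells H2-K2 overlapped wild type (0.06 ± 0.14) and stood above every Ndufa4 KO library (0.56 ± 0.14).

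Among genes that supply and load peptides, the transporter subunit Tap1 averaged 348 ± 25.5 TPM in Ndufa4 KO and 338 ± 6.05 TPM in wild type cells (0.04 ± 0.06, limma adjusted p = 0.69). The chaperone Calr, most abundant of the list, differed by -0.11 ± 0.04 (limma adjusted p = 0.091), and the proteasome activator subunit Psme2 by 0.12 ± 0.06 (limma adjusted p = 0.24). None of the 13 regulators was called. Nlrc5, the class I coactivator, averaged 17.7 ± 4.76 TPM in Ndufa4 KO and 13.8 ± 2.70 TPM in wild type cells, a difference of 0.33 ± 0.19 (limma adjusted p = 0.30). Irf1, an interferon-induced activator of class I promoters, differed by -0.04 ± 0.04 (limma adjusted p = 0.55). Rfxap, a subunit of the RFX complex that binds MHC promoters, was named after its value was seen and came nearest to the threshold, at 17.5 ± 0.473 TPM in Ndufa4 KO and 14.1 ± 1.05 TPM in wild type cells (0.29 ± 0.08, limma adjusted p = 0.051).

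Across the 9 libraries the H2-Q genes varied together, with Pearson r of 0.92 for H2-Q4 with H2-Q6, 0.93 for H2-Q4 with H2-Q7 and 0.95 for H2-Q6 with H2-Q7. These libraries fall into 3 genotypes, and the genes share sequence, so the values are a description. With genotype means removed the same pairs gave 0.18, 0.62 and 0.43. H2-T23 and H2-T24 gave -0.21 over the libraries and -0.97 with genotype means removed, and of the Ndufa4 KO libraries replicate 3 had the highest H2-T23 and the lowest H2-T24. Among 7029 genes with a mean of at least 10 TPM and outside the H2 complex names, the gene most like H2-Q4 over the 9 libraries was Hmha1 (r = 0.99), at 72.4, 84.7 and 86.3 TPM on average in Ndufa4 KO, Ndufa4l3-miR147 KO and wild type cells, followed by Gas6 and Tmem140 (both 0.98). Those most like H2-Q6 included Bap1 and Pik3r5 (both 0.98), and those most like H2-Q7 were Smarca2, Fiz1 and Otulin (all 0.97). H2-T22 was most like Otulin (0.98), Npc2 (0.97) and Bst2 (0.96), the last an interferon-induced restriction factor at 1329, 1867 and 1674 TPM in Ndufa4 KO, Ndufa4l3-miR147 KO and wild type cells. For H2-T23 these were Grina, Prdx2 and Zmat2 (0.95, 0.93 and 0.91), for H2-T24 they included Srgap2 and Fzd7 (0.98 and 0.97), and for H2-M3 they were Cuedc1, Arhgap22 and the interferon-induced nuclease Isg20 (0.95, 0.94 and 0.94). All these genes were picked as the highest of 7029 over libraries of 3 genotypes, so high values of r follow from the choice. Correlations with genotype means removed were not taken for them, and no theme is read from the names.

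The low level of the H2-Q genes in Ndufa4 KO cells was set against that of their chromosomal neighbours. Within 500 kb of the H2-Q members, 40 other genes passed the filter, with a median difference of 0.06 in Ndufa4 KO minus wild type, beside -0.08 over all genes. Of these, 6 were called higher and 2 lower by limma, beside 2.83% of all genes higher and 5.76% lower. The nearest class I gene, H2-D1, was at -0.04. The 2 lower genes, named after their values were seen, were the lysosomal sialidase Neu1 (-0.36, limma adjusted p = 0.0091, called in 16 of 19 alternatives, and not without wild type replicate 1) and the histone methyltransferase Ehmt2 (-0.26, limma adjusted p = 0.030, called in 7 of 19 alternatives, and not without any 1 of the wild type or Ndufa4l3-miR147 KO libraries). Among the 6 higher was the cytokine gene Tnf, also named after its value was seen, at 0.36 (limma adjusted p = 0.0078, and 0.0052 to 0.049 over the 19 alternatives). In Ndufa4l3-miR147 KO minus wild type none of the 40 was called by limma, beside 0.431% of all genes. Tnf stood at 0.30 there as well (limma adjusted p = 0.081, called in 2 of 19 alternatives), with Neu1 at -0.05 and Ehmt2 at -0.14. Between the knockouts Tnf differed by -0.06 (limma adjusted p = 0.58), so the fit did not tell its levels in the 2 knockouts apart. That does not show the levels to be equal, and both comparisons with wild type use the same wild type libraries.

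**Figure D5:**
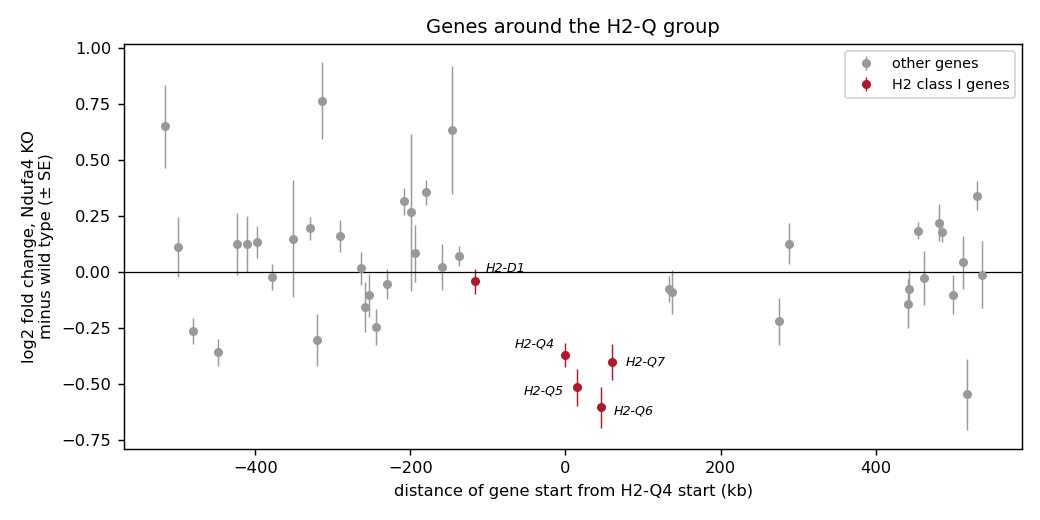
Difference of Ndufa4 KO minus wild type on the log2(TPM + 1) scale (limma estimate ± SE) against the distance in kb of each gene's start from that of H2-Q4, for H2 class I genes (red, named) and the 40 other genes kept (grey). The 4 H2-Q genes lie at -0.60 to -0.37 and H2-D1 at -0.04, and grey points lie on both sides of 0.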

How the data were processed

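The authors deposited TPM per gene for 9 libraries. Kallisto, DESeq2 and edgeR, and the builds mm10 and GRCm39, are named per the submitters' processing notes without role or version, and the annotation release is not given in the sources used here. Read depth is unknown from TPM, so no counting error could be given. Where reads fit several transcripts, as among H2 genes, a TPM is an estimate. From the table, 29763 named genes were read (1 entry without a gene name was left out) and log2(TPM + 1) of the 11133 genes that reached 1 TPM in 3 or more libraries was fitted with limma 3.58.1 in R 4.3.3, with 1 mean per genotype over all 9 libraries, eBayes with trend, two-sided tests and Benjamini-Hochberg adjustment over all genes kept, called at an adjusted p under 0.05. Fold changes on this scale understate the change of low genes. The fit was also run on simulated data, with changes larger than any reported here for the members and with no library that stood apart. That run does not speak to differences as small as those reported. Overlap means that some library of a group lies within the range of the other. Sums of TPM and ratios within a library were described without a test.

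The members and the pathway and marker lists were chosen with earlier results of these data known. Named genes were the 7 members, other H2-Q, H2-T or H2-M genes that passed the filter, H2-K1, H2-D1, B2m, Tap1, Nlrc5 and Irf1, called genes of each pathway list or its 2 most abundant where none was called, and the 3 genes most like each member by Pearson r, and a few genes that this rule names are not reported here. Of the marker lists, none of the kept lymphocyte, dendritic cell, neutrophil or fibroblast markers was called by limma in Ndufa4 KO minus wild type. Shared sequence was counted as 31-base words of GENCODE M21 transcripts. Each comparison was repeated under 19 alternatives: pseudocounts, filters, scalings, removal of the trend on transcript length, other variance models, a replicate block and leaving out each library. Those for H2-Q5, H2-T10, Neu1, Ehmt2 and Tnf were chosen after seeing the data.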

Additional observations from a re-analysis of the deposited data

How the results depend on the processing

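Of 399 alternative values of the 7 members, 382 moved by less than 1 residual SD, 17 moved further and none of those called changed sign. Of those not called, H2-T23 changed sign in some setting in every comparison and H2-Q4 did in Ndufa4l3-miR147 KO minus wild type. The H2-Q sum, -0.41 in Ndufa4 KO minus wild type and 0.42 in Ndufa4l3-miR147 KO minus Ndufa4 KO, was -0.34 and 0.35 with median-of-ratios scaling. Under it the H2-T sums went to 0.0080 and -0.0015 and the sums of the 7 to -0.029 and 0.041, and the cause was not tested. Leaving out 1 library at a time gave -0.44 to -0.37, -0.09 to -0.04 and -0.13 to -0.09 for the H2-Q, H2-T and 7-gene sums in Ndufa4 KO minus wild type, -0.0085 to 0.04, -0.0015 to 0.02 and 0.0057 to 0.02 in Ndufa4l3-miR147 KO minus wild type, and 0.39 to 0.45, 0.05 to 0.10 and 0.10 to 0.14 between the knockouts.

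Genes called over the whole table were 956, 48 and 361 in Ndufa4 KO minus wild type, Ndufa4l3-miR147 KO minus wild type and Ndufa4l3-miR147 KO minus Ndufa4 KO. Fits of only the 6 libraries compared gave 242, 306 and 64, and eBayes without trend gave 30 in the second. Leaving out 1 library gave 261 to 1587, 13 to 202 and 82 to 742, with 1587 and 202 both without Ndufa4 KO replicate 3 and 261 to 288 without any 1 wild type library. The share of higher calls in Ndufa4 KO minus wild type, 33.0%, was 52.2% with median-of-ratios scaling and 52.1% with quantile normalization, and between the knockouts it was 67.9%, 49.2% and 50.8%. Called pathway genes, 0 in each comparison, came to 1, 1, 1, 3 and 4 in Ndufa4 KO minus wild type with a pseudocount of 0.1, a filter at 5 TPM, median-of-ratios scaling, quantile normalization and the length trend removed, to 1 in Ndufa4l3-miR147 KO minus wild type in the 6-library fit, and to 1 and 2 between the knockouts with quantile normalization and the length trend removed. Leaving out 1 library gave 0 to 3, 0 and 0 to 2. Rfxap was called in each of those 5 settings and H2-K1 under quantile normalization and without Ndufa4 KO replicate 3. A replicate block gave 661, 24 and 162 genes. Same-numbered libraries correlated at -0.14 to 0.18 in their deviations and 3 of 9 libraries correlated best with their own number, so the numbers do not pair them.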

Other observations

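Class I-like genes outside the H2-Q, H2-T and H2-M groups were at low levels, and none of the 9 that passed the filter was called by limma in any comparison, beside 8.59%, 0.431% and 3.24% of all genes in Ndufa4 KO minus wild type, Ndufa4l3-miR147 KO minus wild type and Ndufa4l3-miR147 KO minus Ndufa4 KO. All 4 pathway lists together had 9, 3 and 5 of 38 genes at an unadjusted p under 0.05, beside 2905, 917 and 2263 of 11133. Hfe, which regulates iron uptake, averaged 19.6 ± 2.36 TPM in Ndufa4 KO, 22.1 ± 1.57 TPM in Ndufa4l3-miR147 KO and 22.3 ± 1.67 TPM in wild type cells. Fcgrt, the neonatal Fc receptor that recycles IgG, had 13.8, 15.4 and 15.0 TPM in Ndufa4 KO and 13.9, 12.5 and 12.4 TPM in Ndufa4l3-miR147 KO cells, against 19.1, 16.3 and 16.6 TPM in wild type cells. Both knockouts were below every wild type library, by -0.22 ± 0.09 and -0.39 ± 0.09 on the log2(TPM + 1) scale (limma adjusted p = 0.15 for each), and the second was called in the fit of only the 6 libraries compared (limma adjusted p = 0.046). Mr1, which presents vitamin B metabolites to MAIT cells and was named after its value was seen, had 9.00, 10.4 and 7.61 TPM in Ndufa4 KO and 12.5, 11.9 and 12.3 TPM in Ndufa4l3-miR147 KO cells, against 12.0, 11.2 and 10.8 TPM in wild type cells. Its difference in Ndufa4 KO cells was -0.31 ± 0.11 (limma adjusted p = 0.11) and was called without Ndufa4 KO replicate 2 (limma adjusted p = 0.037).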
